A study of Mus musculus with 24 samples.

Results

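Chemokine receptors were described in bone marrow-derived macrophages (BMDMs) by the 8 genes Cx3cr1, Ccr1, Ccr2, Ccr3, Ccr7, Ccrl2, Cxcr4 and Ackr3, taken by symbol from the 35770 gene names of the deposited table. BMDMs had been grown from the marrow of C57BL/6 mice with M-CSF, the growth factor that drives macrophage differentiation, and the age and number of the mice are not given in the sources used here. They then received control media or conditioned media (CM) at 75%, from wild-type (WT), KEAP1 KO or NRF2 KO cells of LL2, a mouse Lewis lung carcinoma line. Each medium was given for 24 h with vehicle or with CDDO-Me (bardoxolone methyl) at 100 nM, a synthetic oleanane triterpenoid that activates NRF2. This made 8 groups of 3 libraries each, 24 in all: media/vehicle, WT CM/vehicle, KEAP1 KO CM/vehicle, NRF2 KO CM/vehicle and the same media with CDDO-Me. The knockouts were made by CRISPR in the LL2 cells, so the macrophages of all 8 groups were of 1 genotype, and 1 KO line per gene supplied the CM. The knockouts themselves were not checked here, since these libraries hold macrophage RNA. Values are TPM, the length-corrected abundance of a transcript scaled to the same total in every library, a unit that keeps no record of sequencing depth. Tests used limma on log2(scaled TPM + 1) in 1 fit of all 8 groups, over 13661 genes that reached more than 1 TPM in 3 or more libraries, and a gene is called where its Benjamini-Hochberg adjusted p was under 0.05. All adjusted p below are of this kind. Fold changes on this scale understate changes of genes near 1 TPM. Whether groups overlap is a description of their 3 libraries each and not a test, and it was not counted over all genes. An exact test of 3 against 3 libraries gives a p of 0.1 at the smallest.

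Chemokines are small secreted proteins that steer leukocytes, and their receptors are G protein-coupled proteins of the cell surface. Ccr2, the receptor for Ccl2, Ccl7 and Ccl12, draws classical monocytes from marrow to tissue, and Cx3cr1, the receptor for Cx3cl1, marks patrolling monocytes and many resident macrophages. Ccr1 and Ccr3 bind several CC chemokines, Cxcr4 binds Cxcl12, and Ccr7 guides dendritic cells to lymph nodes. Ackr3 and Ccrl2 are atypical receptors, which bind Cxcl12 and chemerin without the usual G protein signal.

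Of the 8 receptors, 7 passed the filter on low values and were tested. Ccr7 did not pass. It ranged from 0 to 0.498 TPM over the 24 libraries and was listed at 0 in 4 of them, including all 3 media/vehicle libraries, so no fold change was computed. Cxcr4 had the highest median level, 79.4 TPM (8.94 to 222 TPM), followed by Ccr1 at 46.8 TPM (4.84 to 83.9 TPM), Ccrl2 at 15.1 TPM (4.6 to 38.7 TPM) and Ccr2 at 9.53 TPM (4.73 to 29.3 TPM). Ccr3 had a median of 3.53 TPM and a range of 0.183 to 7.32 TPM. Cx3cr1 and Ackr3 had medians of 1.18 and 0.955 TPM and were above 1 TPM in 13 and 12 libraries.

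The macrophage markers fixed for this check, 8 genes led by Lyz2, summed to 15680 TPM or more in every library, while Epx of eosinophils and Cd3e of T cells stayed at or below 0.0253 and 0.19 TPM. Other genes of these lists were higher. The eosinophil list, led by Siglecf, summed to 1.63 to 7.38 TPM over the libraries, the T and NK cell list, led by Lck, to 1.41 to 5.46 TPM, the mast cell and basophil list, led by Mcpt8, to 0.436 to 17.2 TPM and the neutrophil list, led by S100a8, to 11.9 to 76.6 TPM. Markers of fibroblasts were present, with a sum of their 10 genes from 293.7 TPM in KEAP1 KO CM/CDDO-Me replicate 3 to 3293 TPM in NRF2 KO CM/vehicle replicate 2. In these bulk samples, fewer cells of a type and less RNA per cell cannot be told apart. The replicate 3 libraries of NRF2 KO CM/vehicle and NRF2 KO CM/CDDO-Me stood apart, with 15702 and 16299 genes above 0 where all other libraries had at least 17817, and with mitochondrial shares of 9.87% and 4.74% of TPM where the median was 2.68%.

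**Figure D1:**
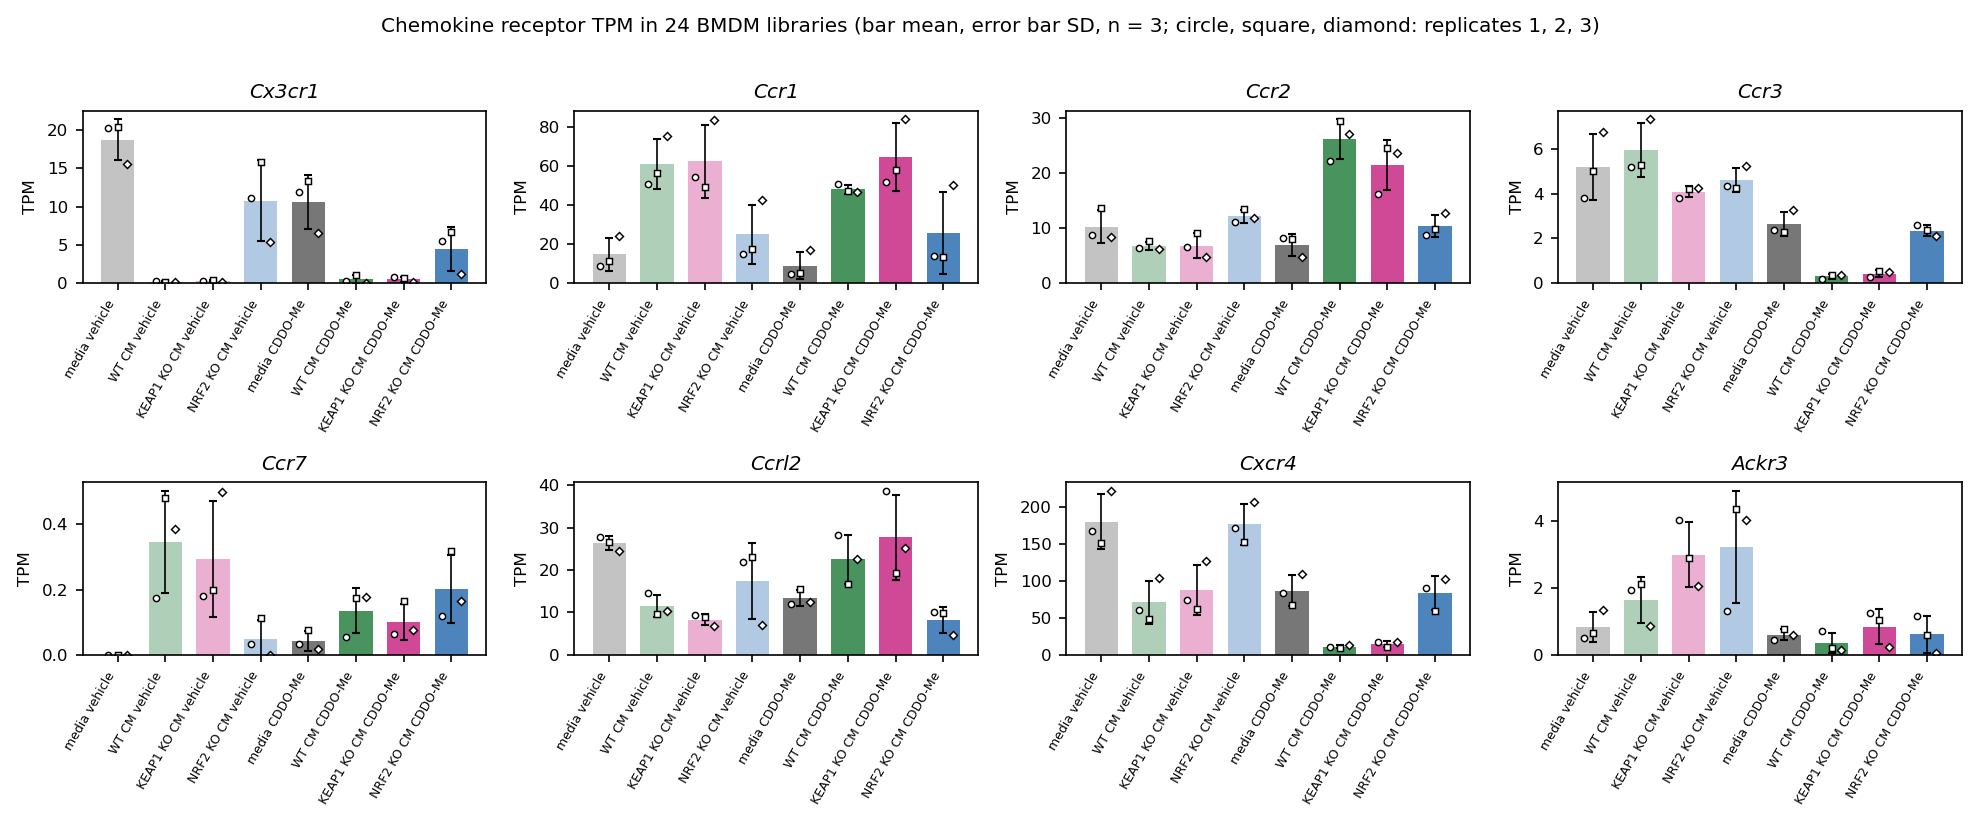
TPM of the 8 receptors (vertical axes, linear from 0) in the 8 groups (horizontal axes), with bars for the mean, error bars for the SD and symbols for the 3 libraries of each group. Cx3cr1 was near 0 with WT and KEAP1 KO CM, and Ccr2 was highest, at 16.2 TPM or more, in the WT and KEAP1 KO CM groups given CDDO-Me.

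Ccr1, Ccr3 and Ccr2 lie together on chromosome 9 of GRCm39, within 151.4 kb from 123762161 to 123913594, and Ccr1l1 is the other protein-coding gene between them. Cx3cr1 is 3.86 Mb away on the same chromosome (119877749 to 119898945), and Ccrl2 is also on chromosome 9 (110883554 to 110886591). Cxcr4 (128515936 to 128520044) and Ackr3 (90131689 to 90144473) are on chromosome 1, and Ccr7 (99035022 to 99045911) is on chromosome 11. The promoters of 3 genes are shown because Ccr2 and Ccr3 are neighbours that moved in opposite directions with CDDO-Me in WT and KEAP1 KO CM, and the response of Ccrl2 to CDDO-Me differed between media. Each runs 5′ to 3′ from 250 bases before to 50 after the start, from the RefSeq table of GRCm38.p6, and each matched 1 place of GRCm39. Capitals mark matches, on either strand, to the NF-kB motif (GGGA, any 4 bases, CC), TGACNNNGC (the antioxidant response element core) or ACGTG (the hypoxia response element core).
Ccr2 promoter, chr9:123901970-123902269, plus strand: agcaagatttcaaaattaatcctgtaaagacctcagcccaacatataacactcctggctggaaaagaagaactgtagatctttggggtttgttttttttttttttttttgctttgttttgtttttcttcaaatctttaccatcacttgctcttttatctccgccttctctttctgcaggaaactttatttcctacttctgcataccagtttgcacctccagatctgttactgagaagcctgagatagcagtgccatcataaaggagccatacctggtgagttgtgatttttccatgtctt
Ccr3 promoter, chr9:123821758-123822057, plus strand: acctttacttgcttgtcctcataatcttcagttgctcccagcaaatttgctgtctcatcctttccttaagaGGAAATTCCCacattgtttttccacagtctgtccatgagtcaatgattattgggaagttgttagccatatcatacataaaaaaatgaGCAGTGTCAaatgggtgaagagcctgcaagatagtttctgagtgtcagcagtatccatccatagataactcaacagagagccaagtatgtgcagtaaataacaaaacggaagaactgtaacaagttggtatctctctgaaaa
Ccrl2 promoter, chr9:110886537-110886836, minus strand: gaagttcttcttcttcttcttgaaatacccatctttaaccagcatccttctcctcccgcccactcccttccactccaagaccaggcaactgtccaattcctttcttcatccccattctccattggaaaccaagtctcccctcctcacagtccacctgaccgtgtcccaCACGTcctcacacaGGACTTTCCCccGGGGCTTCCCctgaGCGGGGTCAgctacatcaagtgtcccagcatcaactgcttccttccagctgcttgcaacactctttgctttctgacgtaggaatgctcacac
The Ccr2 window held no match, the Ccr3 window 1 to the NF-kB motif and 1 to TGACNNNGC, and the Ccrl2 window 2 to the NF-kB motif, 1 to TGACNNNGC and 1 to ACGTG. The annotated Ccr2 gene begins at 123901982, near the first base of its window, so most of that window lies inside the gene. The sequence before the annotated Ccr2 start was hardly searched, and its lack of matches cannot be set against the other windows. The table holds 3 Ccrl2 promoters, and the other 2 had the ACGTG match alone, so the choice of start decides what is found. Among all 32544 promoters of the table, 20.79% held the NF-kB motif, 12.41% TGACNNNGC and 19.71% ACGTG. The motifs of STAT6 (TTC and GAA with 4 free bases between), the interferon-stimulated response element (GAAA, any 2 bases, GAAA) and PU.1 (GAGGAAGT) were also searched, are held by 6.98%, 3.45% and 3.11% of promoters, and were in none of these 3 windows. A match is a description of the sequence and not a bound site.

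The first question was how tumor CM changed the receptors in vehicle-treated BMDMs. With WT CM, 4 of the 7 receptors tested were called against media/vehicle, where 7.34% of all genes tested were called (4.33% higher, 3.02% lower): Ccr1 rose, and Cx3cr1, Ccrl2 and Cxcr4 fell. Of all calls 58.9% were higher, against 48.2% without scaling. With the replicate number as a block 12.7% of genes were called, and again 4 receptors. When 1 library was left out, 1 to 2 receptors were called. The median log2 difference of the 7 was -0.45, and that of all genes was 0.01. With KEAP1 KO CM, 3 were called against a background of 7.96% (4.65% higher, 3.31% lower), with Ccr1 higher and Cx3cr1 and Ccrl2 lower. With NRF2 KO CM none of the 7 was called, in a comparison where a single gene was called (0.00732%, 1 of 13661) and 1659 genes were below 0.05 before adjustment. These 3 comparisons share the media/vehicle libraries.

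Some cell type markers moved with the same media. With WT and with KEAP1 KO CM, Fcgr1 and Mertk of the 8 macrophage markers fell. In both, Batf3, Ccl22 and Ccl17 of the 7 dendritic cell markers tested rose, and the rest, Xcr1 and Clec9a included, were not called. Of the endothelial markers, Pecam1 rose and Kdr fell in both. Cdh1, the only epithelial marker that passed the filter, also rose in both. Genes are named here by the list they were on, and whether macrophages themselves or other cells changed in them was not tested. Plac8, of the 4 monocyte markers reported, fell with WT CM. The macrophage markers summed to 23320 ± 292.8 TPM (SD, n = 3) in media/vehicle, 18610 ± 603.5 TPM with WT CM, 19670 ± 1778 TPM with KEAP1 KO CM and 25620 ± 2059 TPM with NRF2 KO CM, and the dendritic cell markers to 97.34, 104.0, 114.2 and 88.56 TPM in the same order. Their part in the receptor values was not tested.

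The 3 media/vehicle libraries had Cx3cr1 levels of 20.3, 20.4 and 15.6 TPM, where those of WT CM/vehicle had 0.268, 0.155 and 0.121 TPM. In KEAP1 KO CM/vehicle it was at 0.338, 0.495 and 0.203 TPM, and in NRF2 KO CM/vehicle at 11.1, 15.9 and 5.36 TPM. All WT and KEAP1 KO CM libraries were below every media and NRF2 KO CM library, while the last 2 groups overlapped. The log2 fold change was -4.00 (SE 0.36, adjusted p = 2.7e-07) with WT CM and -3.84 (SE 0.36, adjusted p = 5.2e-07) with KEAP1 KO CM. As a ratio of mean TPM, Cx3cr1 was 103-fold and 54.3-fold lower. These ratios rest on CM means of 0.181 and 0.346 TPM, below the filter level of 1 TPM. The WT and KEAP1 KO CM groups overlapped, so the ratios do not rank them. With NRF2 KO CM the log2 difference was -0.82 (SE 0.36, adjusted p = 0.406). Directly compared, WT CM was below NRF2 KO CM by a log2 difference of -3.18 (SE 0.36, adjusted p = 6.9e-06).

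Ccr1 moved the other way. Its levels were 8.66, 11.5 and 24.3 TPM in media/vehicle, 50.8, 56.5 and 75.2 TPM in WT CM/vehicle and 54.2, 49.2 and 83.2 TPM in KEAP1 KO CM/vehicle. In NRF2 KO CM/vehicle it was at 14.9, 17.6 and 42.5 TPM, overlapping media but not WT CM. Ccr1 rose with WT CM by 2.13 on the log2 scale (SE 0.54, adjusted p = 0.0185) and with KEAP1 KO CM by 2.07 (SE 0.54, adjusted p = 0.0203). Neither call held without media/vehicle replicate 1 or 2 or without replicate 3 of the CM group, with log2 fold changes of 1.84 to 2.01 (adjusted p = 0.076 to 0.107) for WT CM and 1.78 to 1.95 (adjusted p = 0.0788 to 0.114) for KEAP1 KO CM. Between WT and NRF2 KO CM the log2 difference of 1.41 did not pass (SE 0.54, adjusted p = 0.102). It did under 4 of 17 alternatives, among them the replicate number as a block (adjusted p = 0.0041).

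Cxcr4, the receptor that retains leukocytes in marrow, was at 168, 151 and 222 TPM in media/vehicle and at 60.3, 49.2 and 104 TPM in WT CM/vehicle. NRF2 KO CM/vehicle had 172, 152 and 206 TPM, within the range of media, and KEAP1 KO CM/vehicle had 74.8, 61.9 and 127 TPM. Every WT and KEAP1 KO CM library was below every media and NRF2 KO CM library. Cxcr4 fell with WT CM against media (log2 fold change -1.32, SE 0.34, adjusted p = 0.0207) and was lower with WT than with NRF2 KO CM (-1.33, SE 0.34, adjusted p = 0.0168). The first call was lost without media/vehicle replicate 1 or 3 or WT CM/vehicle replicate 1 or 2 (-1.36 to -1.08, adjusted p = 0.0577 to 0.122), and the second without WT CM/vehicle replicate 1 or 2 or NRF2 KO CM/vehicle replicate 3 (-1.24 to -1.08, adjusted p = 0.0669 to 0.0881) and in a fit of these 2 groups alone (-1.34, adjusted p = 0.145). With KEAP1 KO CM the log2 difference from media was -1.09 (SE 0.34, adjusted p = 0.0576). This difference passed under 8 of 17 alternatives, among them the replicate number as a block (adjusted p = 2.3e-05).

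Ccrl2 was at 27.7, 26.7 and 24.4 TPM in media/vehicle, 14.6, 9.71 and 10.4 TPM in WT CM/vehicle and 9.4, 8.86 and 6.75 TPM in KEAP1 KO CM/vehicle. The CM groups did not overlap media. Its log2 fold change with WT CM was -1.07 (SE 0.32, adjusted p = 0.0444), a call lost when any 1 of the 6 libraries was left out (-1.23 to -0.95, adjusted p = 0.0545 to 0.171), without scaling and without the filter. With KEAP1 KO CM it was -1.56 (SE 0.32, adjusted p = 0.00306). NRF2 KO CM/vehicle libraries had 22, 23.1 and 7.1 TPM, so that replicate 3 alone was among the values of the other CM groups, and the log2 difference from media was -0.70 (SE 0.32, adjusted p = 0.406).

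Ccr2, Ccr3 and Ackr3 did not pass against media in any CM group. Ackr3 was at 0.5, 0.652 and 1.36 TPM in media/vehicle, 4.03, 2.91 and 2.07 TPM with KEAP1 KO CM and 1.31, 4.37 and 4.04 TPM with NRF2 KO CM, where log2 differences of 1.10 (SE 0.34, adjusted p = 0.0506) and 1.14 (SE 0.34, adjusted p = 0.395) missed the threshold. The first passed under 8 of 16 alternatives, among them the replicate number as a block (adjusted p = 0.0396). Ccr2 was at 6.36, 7.59 and 6.3 TPM in WT CM/vehicle and at 11.1, 13.5 and 11.8 TPM in NRF2 KO CM/vehicle, with no overlap. It was the third receptor called between WT and NRF2 KO CM, beside Cx3cr1 and Cxcr4, where 10.7% of genes were called, 6.56% higher and 4.11% lower (log2 difference -0.73, SE 0.22, adjusted p = 0.0418). Of all calls in that comparison 61.5% were higher, against 44.2% without scaling. Cell type markers were called in the same comparison. Lower with WT CM were Plac8 and Vcan of monocytes, Mertk and Lyz2 of macrophages, Siglecf of eosinophils, Mcpt8 of basophils and Kdr of endothelial cells. Higher were Adgre1 of the macrophage list, Batf3, Ccl22 and Ccl17 of the dendritic cell list and Cdh1, the only epithelial marker tested. Which cells these markers came from was not tested. Their part in the Ccr2, Cx3cr1 and Cxcr4 values was not tested. The Ccr2 call was lost without any 1 of the 3 WT CM/vehicle libraries or without NRF2 KO CM/vehicle replicate 2 or 3 (-0.79 to -0.67, adjusted p = 0.0618 to 0.121).

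WT and KEAP1 KO CM were compared directly to ask whether KEAP1 status of the cancer cells mattered. No receptor was called, and no gene was (0%), with 341 genes at an unadjusted p under 0.05. With array weights 1081 genes were called, and of the receptors Ccr3 (log2 difference -0.44, adjusted p = 0.0224). The 95% interval of the log2 difference was -0.60 to 0.92 for Cx3cr1 and -1.20 to 1.07 for Ccr1, so that differences within these bounds were not resolved. Ccr3, at 5.19, 5.29 and 7.32 TPM with WT CM and 3.8, 4.19 and 4.24 TPM with KEAP1 KO CM, did not overlap between the groups (log2 difference -0.50, SE 0.19, adjusted p = 1).

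**Figure D2:**
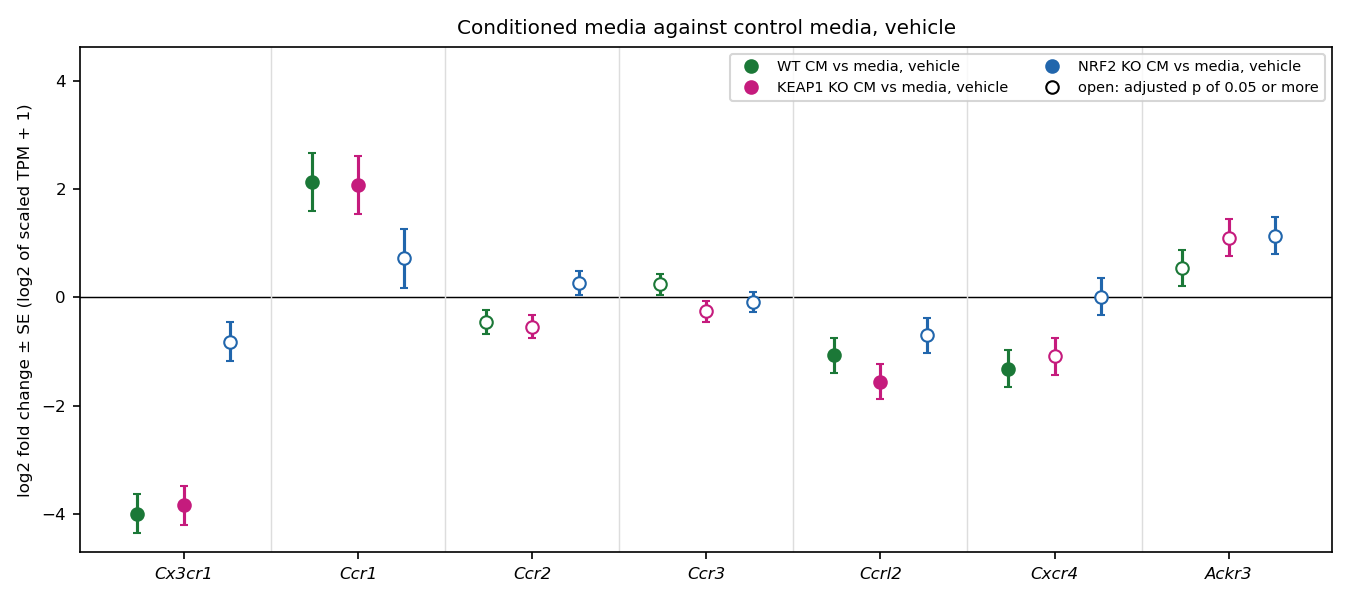
Log2 fold change (vertical axis, ± SE) of the 7 tested receptors (horizontal axis) in each CM against media, vehicle, where filled points had an adjusted p under 0.05. Cx3cr1 lay near -4 with WT and KEAP1 KO CM, and no point was filled for NRF2 KO CM.

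The second question was the response to CDDO-Me. In WT CM, 5 of 7 receptors were called (27.8% of all genes, 13.9% in either direction): Ccr2 and Ccrl2 rose and Ccr3, Cxcr4 and Ackr3 fell. In KEAP1 KO CM, where 28.8% of genes were called (14.5% higher, 14.2% lower), the same 5 receptors passed in the same directions. Without scaling the share of higher calls went from 49.9% to 39.1% in WT CM and from 50.5% to 34.6% in KEAP1 KO CM. In media 1 was called, Ccr3, lower (6.01% of genes, 3.07% higher and 2.94% lower), and in NRF2 KO CM 3 were, Cx3cr1, Ccr3 and Ackr3, all lower (9.77%, 4.49% higher and 5.28% lower). The median absolute log2 difference of the 7 was 1.00 in WT CM, 1.70 in KEAP1 KO CM, 0.74 in media and 0.90 in NRF2 KO CM, beside 0.29, 0.30, 0.16 and 0.21 over all genes tested.

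Ccr2 was at 22.2, 29.3 and 27 TPM in WT CM/CDDO-Me and at 16.2, 24.5 and 23.6 TPM in KEAP1 KO CM/CDDO-Me. The vehicle groups of these media reached 7.59 and 9.18 TPM at most, so neither pair overlapped. The rise was 1.91 on the log2 scale (SE 0.22, adjusted p = 1.2e-06) in WT CM and 1.70 (SE 0.22, adjusted p = 5.3e-06) in KEAP1 KO CM. In media, levels went from 8.67, 13.7 and 8.38 TPM with vehicle to 8.21, 8.1 and 4.73 TPM with CDDO-Me (log2 difference -0.49, SE 0.22, adjusted p = 0.274), and in NRF2 KO CM the difference was -0.20 (SE 0.22, adjusted p = 0.695). The response in WT CM exceeded that in media by 2.40 (SE 0.31, adjusted p = 1.3e-05) and that in KEAP1 KO CM did so by 2.19 (SE 0.31, adjusted p = 4.5e-05), in tests where 15% of genes were called for WT CM (8.3% higher, 6.74% lower) and 14.7% for KEAP1 KO CM (8.38% higher, 6.36% lower). Of the latter calls 56.9% were higher, against 40.5% without scaling. Each test held 3 called receptors, Ccr2, Ccr3 and Ccrl2.

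Of 4 monocyte markers reported, led by Hp, 2 rose with CDDO-Me in WT CM and the same 2 in KEAP1 KO CM: Ly6c2 and Plac8. Ly6c2 was at 14, 18.9 and 33.7 TPM in WT CM/CDDO-Me and at most at 1.44 TPM in WT CM/vehicle. The sum of the 4 genes was 56.58, 81.73 and 70.39 TPM against 45.83, 69.59 and 22.59 TPM, so the groups overlapped in it. Of the 7 dendritic cell markers tested, Clec9a and Xcr1 rose and Batf3, Ccl22 and Ccl17 fell in both media. Clec9a was at 95.4, 95.5 and 123 TPM in WT CM/CDDO-Me and at 43.8, 53.9 and 83.4 TPM in KEAP1 KO CM/CDDO-Me, and at most at 0.497 TPM in every other group. Flt3, which was on the list but not tested, stayed at or below 0.239 TPM in all libraries. The dendritic cell list, with Fscn1 as its most abundant gene, summed to 104.0 ± 9.874 TPM (SD, n = 3) in WT CM/vehicle and 173.6 ± 15.66 TPM in WT CM/CDDO-Me. In KEAP1 KO CM it went from 114.2 ± 19.81 TPM to 132.3 ± 11.52 TPM, groups that overlapped, in media from 97.34 ± 13.45 TPM to 144.8 ± 34.69 TPM and in NRF2 KO CM from 88.56 ± 42.13 TPM to 110.5 ± 42.73 TPM. Of the 8 macrophage markers, Fcgr1 and Mertk rose and Cd68 fell in both media, and Adgre1 fell in WT CM. In control media Itgam rose and Fcgr1 fell, and in NRF2 KO CM Cd68 and Fcgr1 fell. The macrophage markers summed to 28000, 24490 and 24380 TPM in NRF2 KO CM/vehicle. With CDDO-Me they summed to 33120, 29290 and 38520 TPM there, without overlap. Of the 5 neutrophil markers tested, S100a8 rose in WT, KEAP1 KO and NRF2 KO CM. The neutrophil list summed to 22.3, 26.1 and 16.9 TPM in KEAP1 KO CM/vehicle and 65.9, 76.6 and 72.2 TPM in KEAP1 KO CM/CDDO-Me, without overlap, and to 11.9, 38.7 and 13.3 TPM and 33.7, 60.4 and 43.7 TPM in the WT CM groups, which overlapped. Lck of T and NK cells rose in WT CM. Pecam1 of endothelial cells and Cdh1, the only epithelial marker tested, fell in WT and KEAP1 KO CM. Kdr of endothelial cells fell in control media and NRF2 KO CM, and Vcan of monocytes rose in NRF2 KO CM. The part of other cells in the Ccr2 values, and in the other receptor values of these media, was not tested. About 3.67% of the 31-base words of Ccr2 transcripts occur in other genes, so reads could be shared with them.

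Ccr3, the receptor for eotaxins, fell in every medium. It was at 5.19, 5.29 and 7.32 TPM in WT CM/vehicle and at 0.183, 0.362 and 0.382 TPM in WT CM/CDDO-Me. In KEAP1 KO CM it went from 3.8, 4.19 and 4.24 TPM to 0.275, 0.531 and 0.506 TPM, and in NRF2 KO CM from 4.35, 4.24 and 5.21 TPM to 2.58, 2.37 and 2.1 TPM. No pair of groups overlapped. The log2 fold change was -2.37 (SE 0.19, adjusted p = 5.4e-09) in WT CM, -1.74 (SE 0.19, adjusted p = 4.2e-07) in KEAP1 KO CM, -0.74 (SE 0.19, adjusted p = 0.0139) in NRF2 KO CM and -0.73 (SE 0.19, adjusted p = 0.0211) in media. Media libraries had 3.79, 5.02 and 6.72 TPM with vehicle and 2.39, 2.27 and 3.27 TPM with CDDO-Me, again without overlap.
The fall was larger than in media by -1.64 (SE 0.26, adjusted p = 1.4e-04) in WT CM and by -1.01 (SE 0.26, adjusted p = 0.0115) in KEAP1 KO CM, the latter -0.31 (adjusted p = 0.177) with a pseudocount of 5. The call in media was lost without media/vehicle replicate 2 or 3 or media/CDDO-Me replicate 1 or 2 (-0.75 to -0.55, adjusted p = 0.0599 to 0.143), and the call in NRF2 KO CM without NRF2 KO CM/vehicle replicate 3 (-0.60, adjusted p = 0.0591).

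Ccr3 is known from eosinophils and basophils, and the sum of the 6 mast cell and basophil markers was lower with CDDO-Me in the same media. It was 4.26, 3.90 and 4.13 TPM in media/vehicle and 2.64, 2.45 and 1.24 TPM in media/CDDO-Me. In WT CM it went from 2.12, 2.11 and 1.598 TPM to 0.496, 0.436 and 0.492 TPM, in KEAP1 KO CM from 4.65, 4.96 and 2.69 TPM to 1.30, 2.00 and 0.713 TPM, and in NRF2 KO CM from 9.71, 17.2 and 6.08 TPM to 5.24, 4.85 and 1.88 TPM. No pair of groups overlapped in this sum. Of the 2 genes tested, Mcpt8, a basophil protease and the most abundant of the list, fell in KEAP1 KO CM (log2 fold change -1.12, SE 0.35, adjusted p = 0.018) and NRF2 KO CM (-1.41, SE 0.35, adjusted p = 0.0111). In WT CM and media its log2 differences were -0.78 (SE 0.35, adjusted p = 0.107) and -0.91 (SE 0.35, adjusted p = 0.152), and the latter passed with the block (adjusted p = 0.0117). Fcer1a, Ms4a2 and Prss34 of the list were at 0 in most libraries. Siglecf, the 1 eosinophil marker tested, was not called for CDDO-Me in any medium (log2 differences of -0.73 to 0.28, adjusted p = 0.119 to 0.867). The part of these cells in the Ccr3 values was not tested.

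Cxcr4 fell from 60.3, 49.2 and 104 TPM to 10.8, 8.94 and 13 TPM in WT CM, and from 74.8, 61.9 and 127 TPM to 17.2, 10.7 and 17.1 TPM in KEAP1 KO CM, with no overlap. The log2 fold changes were -2.44 (SE 0.34, adjusted p = 1.3e-05) and -2.27 (SE 0.34, adjusted p = 2.8e-05). In media and NRF2 KO CM every CDDO-Me library was also below every vehicle library, at 84, 66.9 and 109 TPM and at 90.3, 58.8 and 103 TPM. The log2 differences there, -1.05 (SE 0.34, adjusted p = 0.0817) and -1.08 (SE 0.34, adjusted p = 0.0503), missed the threshold and passed with the replicate number as a block (adjusted p = 4.4e-05 and 2.2e-05). The difference between the responses in WT CM and in media was -1.39 (SE 0.48, adjusted p = 0.0611), and that between KEAP1 KO CM and media was -1.22 (SE 0.48, adjusted p = 0.105). These missed the threshold here and passed under 8 and 3 of 23 alternatives.

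The response of Ccrl2 depended on the medium. In WT CM it rose from 14.6, 9.71 and 10.4 TPM to 28.3, 16.7 and 22.6 TPM, and in KEAP1 KO CM from 9.4, 8.86 and 6.75 TPM to 38.7, 19.2 and 25.2 TPM, without overlap. In media it went from 27.7, 26.7 and 24.4 TPM to 12.1, 15.6 and 12.4 TPM, also without overlap. The log2 fold changes were 1.00 (SE 0.32, adjusted p = 0.0219), 1.74 (SE 0.32, adjusted p = 2.4e-04) and -0.92 (SE 0.32, adjusted p = 0.105), and the last passed with the block (adjusted p = 0.0362). The call in WT CM was lost without WT CM/vehicle replicate 2 or 3 or WT CM/CDDO-Me replicate 1 or 3 (0.82 to 0.98, adjusted p = 0.0613 to 0.109). The responses in WT and KEAP1 KO CM exceeded that in media by 1.93 (SE 0.45, adjusted p = 0.00496) and 2.66 (SE 0.45, adjusted p = 2.6e-04). In NRF2 KO CM the log2 difference was -0.90 (SE 0.32, adjusted p = 0.0845), and the adjusted p was 0.0318 with the block.

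Ackr3, the scavenger of Cxcl12, went from 1.95, 2.13 and 0.859 TPM to 0.704, 0.214 and 0.157 TPM in WT CM, from 4.03, 2.91 and 2.07 TPM to 1.25, 1.05 and 0.249 TPM in KEAP1 KO CM and from 1.31, 4.37 and 4.04 TPM to 1.17, 0.601 and 0.0712 TPM in NRF2 KO CM. None of these pairs overlapped. The log2 fold changes were -0.92 (SE 0.34, adjusted p = 0.0474), -1.04 (SE 0.34, adjusted p = 0.0243) and -1.36 (SE 0.34, adjusted p = 0.0116). Each call was lost when single libraries were left out. In WT CM these were vehicle replicates 1 and 2 and CDDO-Me replicates 2 and 3 (-0.84 to -0.79, adjusted p = 0.131 to 0.164), in KEAP1 KO CM vehicle replicates 1 and 2 and CDDO-Me replicate 3 (-1.04 to -0.77, adjusted p = 0.0609 to 0.143), and in NRF2 KO CM vehicle replicates 2 and 3 and CDDO-Me replicate 3 (-1.19 to -1.12, adjusted p = 0.0521 to 0.062). The fibroblast markers, led by Sparc, summed to 1304 ± 485.9 TPM (SD, n = 3) with vehicle and 614.5 ± 283.3 TPM with CDDO-Me in WT CM, and to 1837 ± 579.3 and 878.9 ± 511.1 TPM in KEAP1 KO CM. Of the 10 genes, 1 fell in WT CM (Pdgfra), 2 in KEAP1 KO CM (Pdgfra and Postn) and none in NRF2 KO CM, where 13.9%, 14.2% and 5.28% of all genes were called lower. Their part in the Ackr3 values was not tested.

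Cx3cr1 stayed low in WT and KEAP1 KO CM with CDDO-Me, at 0.35, 1.12 and 0.0587 TPM and at 0.782, 0.704 and 0.177 TPM. In NRF2 KO CM it went from 11.1, 15.9 and 5.36 TPM to 5.57, 6.73 and 1.23 TPM, groups that overlap (log2 fold change -1.18, SE 0.36, adjusted p = 0.0452). That call was lost without NRF2 KO CM/vehicle replicate 1 or 2 or NRF2 KO CM/CDDO-Me replicate 3 (-1.12 to -0.67, adjusted p = 0.102 to 0.197). It was also lost under 7 other settings (adjusted p = 0.054 to 0.563). In media Cx3cr1 was at 11.9, 13.3 and 6.61 TPM with CDDO-Me, below all vehicle libraries (-0.80, SE 0.36, adjusted p = 0.268), which passed with the block (adjusted p = 0.0351). Its responses in WT and KEAP1 KO CM differed from that in media by 1.13 (SE 0.51, adjusted p = 0.177) and 1.05 (SE 0.51, adjusted p = 0.216). Each difference missed the threshold and passed under 4 of 23 alternatives, among them the block (adjusted p = 0.0203 and 0.0308). Ccr1 was called for CDDO-Me in none of the 4 media. It was at 50.6, 47 and 46.6 TPM in WT CM/CDDO-Me and 51.5, 57.7 and 83.9 TPM in KEAP1 KO CM/CDDO-Me, the first just below all WT CM/vehicle libraries, with log2 differences of -0.21 (SE 0.54, adjusted p = 0.85) and 0.23 (SE 0.54, adjusted p = 0.824).

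With the replicate number as a block, the receptors called for CDDO-Me were 4 in media (10.7% of all genes) and 5 in NRF2 KO CM (14.6%). The response in NRF2 KO CM was not shown to differ from that in media for any receptor, nor for any gene (0%), with 374 genes at an unadjusted p under 0.05. Without replicate 3 of both NRF2 KO CM groups, Cx3cr1, Ccr3 and Ackr3 lost their calls for CDDO-Me in NRF2 KO CM, and the 1 receptor called was Ccrl2 (log2 difference -1.06, adjusted p = 0.0162), which had not been called with them. In a fit of the NRF2 KO CM groups alone, 0 receptors and 142 genes were called for CDDO-Me.

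**Figure D3:**
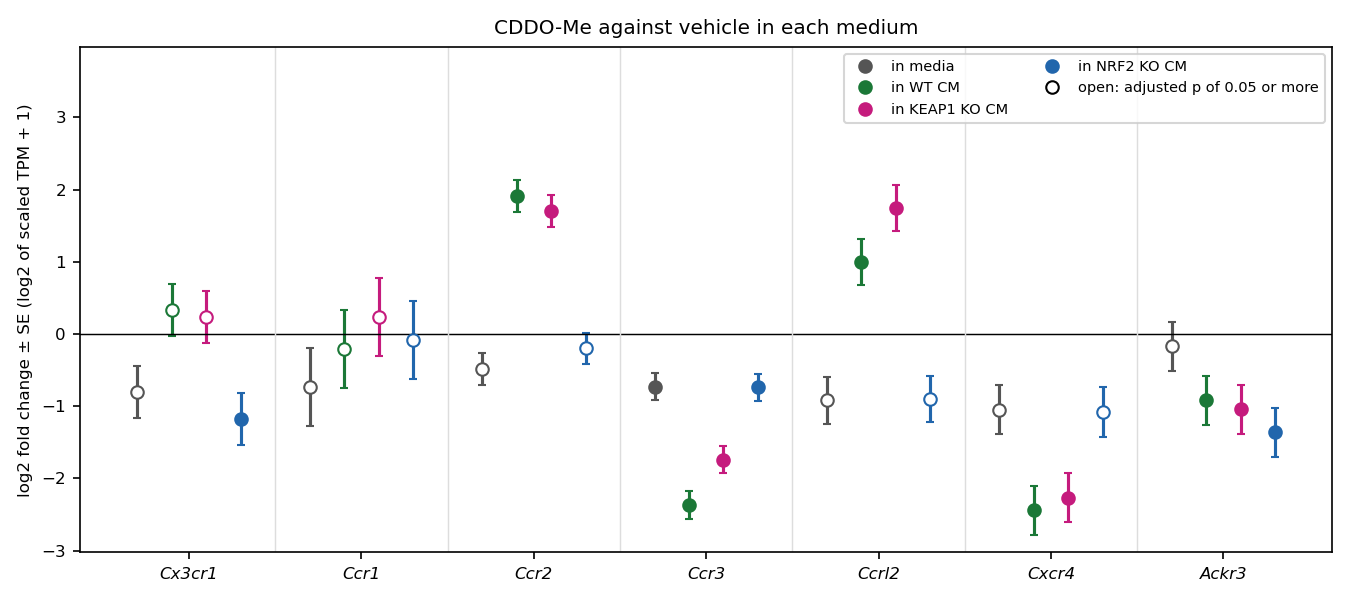
Log2 fold change (vertical axis, ± SE) of the 7 tested receptors (horizontal axis) for CDDO-Me against vehicle in each medium, where filled points had an adjusted p under 0.05. Ccr2 and Ccrl2 were above 0 in WT and KEAP1 KO CM and below 0 in media and NRF2 KO CM, and Ccr3 and Cxcr4 were below 0 in all 4.

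Replicates of 1 number deviated together for some receptors. Replicate 3 had the lowest Cx3cr1 level in 8 of 8 groups, the highest Cxcr4 and Ccr1 levels in 7 of 8 and the highest Ccr3 level in 6. On the log2 scale, replicate 3 deviated from its group mean by -0.43 for Cx3cr1, 0.70 for Ccr1 and 0.43 for Cxcr4 on average. Replicate 2 was below its group mean for Cxcr4 in all 8 groups, by -0.41 on average.

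**Figure D4:**
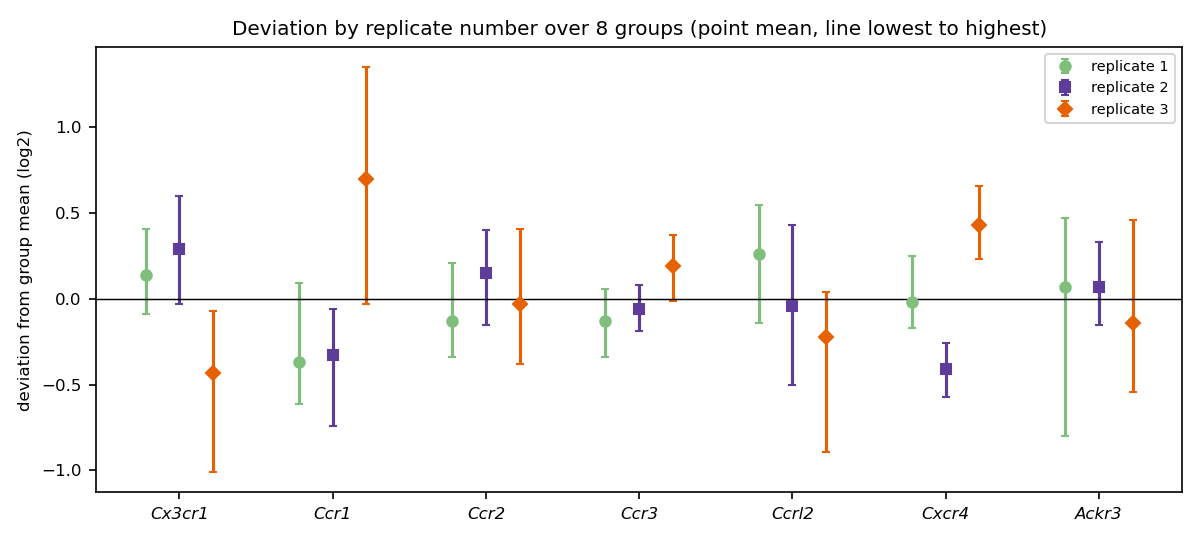
Deviation of each replicate number from its group mean on the log2 scale (vertical axis) for the 7 tested receptors (horizontal axis), with points for the mean over 8 groups and lines from the lowest to the highest. For Cxcr4, replicate 3 was above and replicate 2 below the group mean in all 8 groups.

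The ligands of the receptors were examined in the same libraries. Of 18 listed ligands, 15 were tested. With WT CM/vehicle against media/vehicle 8 rose and 1 fell, and with KEAP1 KO CM 8 rose and 2 fell, with none called for NRF2 KO CM. The shares of all genes called higher and lower were 4.33% and 3.02% with WT CM and 4.65% and 3.31% with KEAP1 KO CM. With the replicate number as a block, Ccl4 (-1.25, adjusted p = 0.0452) and Ccl5 (-1.67, adjusted p = 0.0146) also passed with WT CM. The 8 were Ccl2, Ccl6, Ccl7, Ccl8, Ccl9, Ccl11, Ccl12 and Ccl24 in both. Ccl7, a Ccr2 ligand, was at 399, 461 and 249 TPM with WT CM and 75.7, 97.3 and 51.1 TPM in media (log2 fold change 2.36, adjusted p = 9.6e-04). Ccl24, a Ccr3 ligand, was at 81.2, 54.6 and 104 TPM against 1.23, 1.34 and 0.601 TPM. Neither pair of groups overlapped. The ligand that fell with WT CM was Ccl3, which binds Ccr1, by a log2 fold change of -1.41 (adjusted p = 0.00105).

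With CDDO-Me, 9 ligands fell and 1 rose in WT CM, 10 fell and 2 rose in KEAP1 KO CM, and 3 fell in media and 3 in NRF2 KO CM. The shares of all genes called higher and lower were 13.9% and 13.9% in WT CM, 14.5% and 14.2% in KEAP1 KO CM, 3.07% and 2.94% in media and 4.49% and 5.28% in NRF2 KO CM. With the replicate number as a block, Cxcl12 also passed in media (log2 fold change -1.96, adjusted p = 5.6e-04) and in NRF2 KO CM (-2.46, adjusted p = 4.2e-05), and Ccl2 was higher in NRF2 KO CM (0.61, adjusted p = 0.0433). The median log2 difference of the 15 was -1.80 in WT CM and -1.84 in KEAP1 KO CM, beside -0.03 and -0.02 over all genes. Ccl9, a Ccr1 ligand, was at 1100, 1030 and 1060 TPM in WT CM/vehicle and 32.6, 14 and 16.1 TPM in WT CM/CDDO-Me (log2 fold change -5.59, adjusted p = 8.5e-12). Ccl5, which binds Ccr1 and Ccr3, moved the other way, from 2.53, 1.51 and 1.46 TPM to 1810, 1150 and 433 TPM (log2 fold change 8.55, adjusted p = 1.6e-08). Ccl24 fell to 1.09, 0.933 and 1.04 TPM (log2 fold change -5.22, adjusted p = 9.3e-13). Cxcl12 was at 172, 243 and 44.5 TPM in WT CM/vehicle and 25.7, 40.2 and 11.4 TPM with CDDO-Me, groups that did not overlap (log2 difference -2.27, adjusted p = 0.103). The fibroblast marker sum, given above for WT and KEAP1 KO CM, went from 1803 ± 529 TPM (SD, n = 3) to 1920 ± 850.6 TPM with CDDO-Me in media and from 1922 ± 1207 TPM to 1535 ± 864.1 TPM in NRF2 KO CM, where Cxcl12 had means of 274.3 and 87.95 TPM in media and 412.4 and 101.2 TPM in NRF2 KO CM. Replicate 3 was lowest in both Cxcl12 and that sum in 8 of 8 groups. The part of fibroblasts in the Cxcl12 values was not tested.

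**Figure D5:**
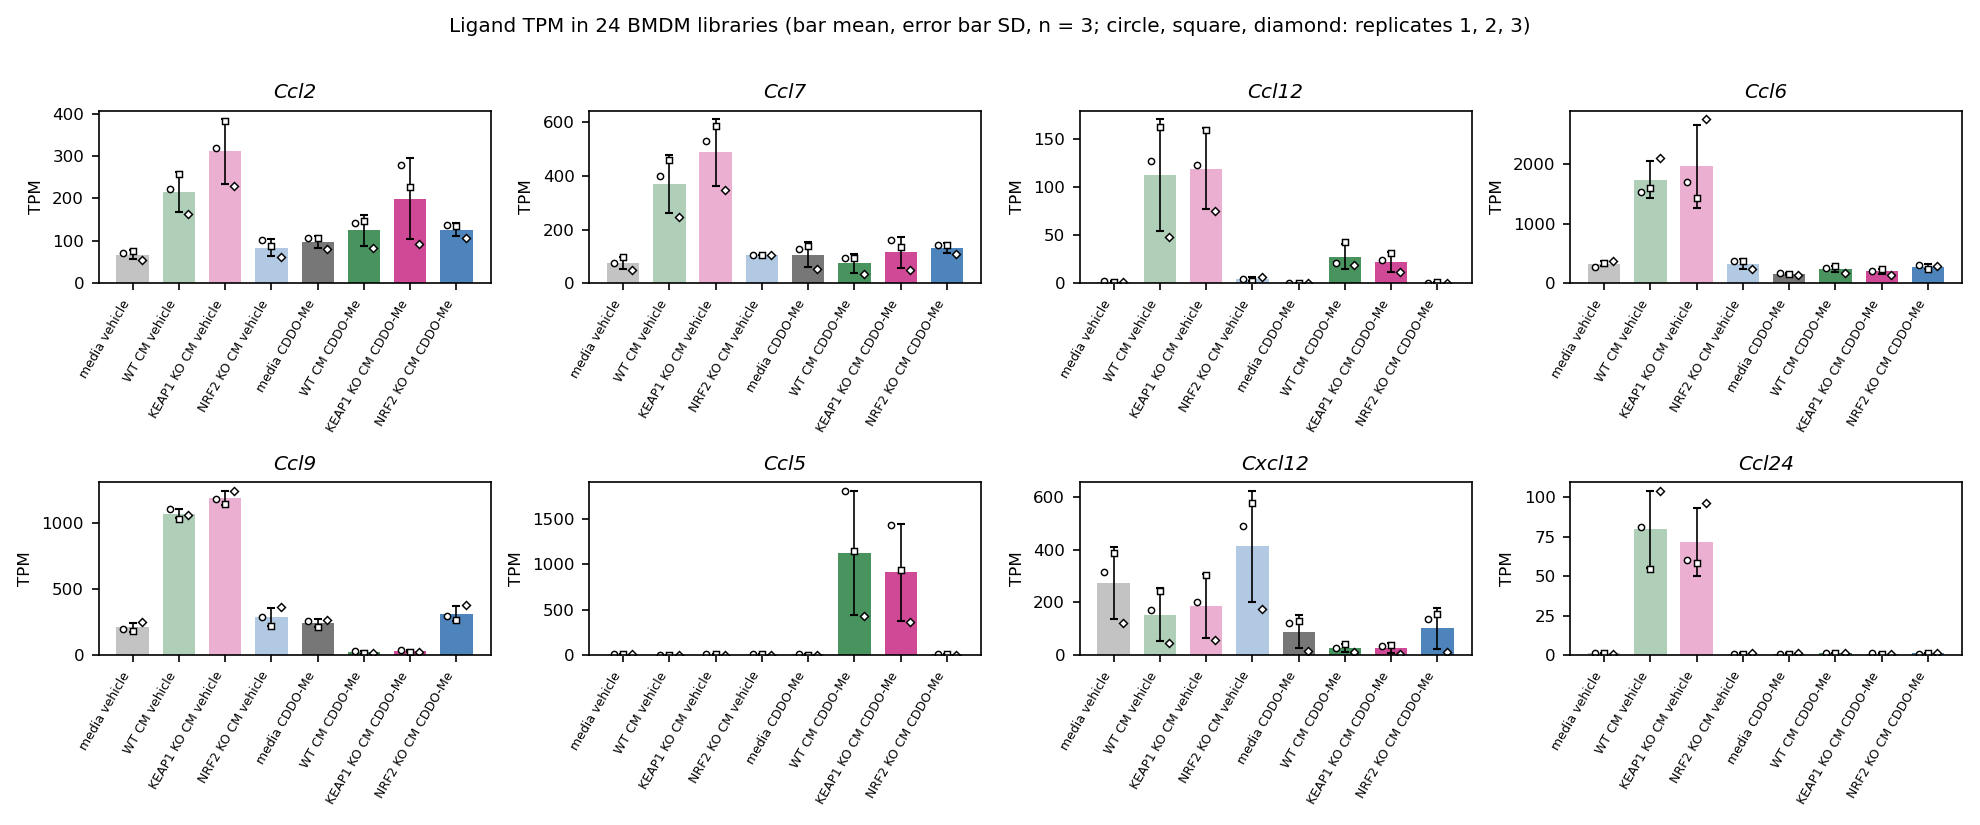
TPM of 8 ligands (vertical axes, linear from 0) in the 8 groups (horizontal axes), with bars for the mean, error bars for the SD and symbols for the 3 libraries. Ccl5 reached 433 TPM or more with CDDO-Me in WT CM and Ccl9 stayed at 32.6 TPM or less there.

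Of 15 further chemokine receptors reported, 4 were tested, and 1 rose with CDDO-Me in WT CM and in KEAP1 KO CM. This was Xcr1, which binds Xcl1, at 4.69, 3.97 and 2.92 TPM with CDDO-Me in WT CM and at most at 0.045 TPM with vehicle (log2 fold change 2.31, adjusted p = 9.1e-11). Cmklr1, the signalling receptor for chemerin, rose in media and NRF2 KO CM, by 0.91 (adjusted p = 0.0173) and 0.83 (adjusted p = 0.0221). Ackr4 had a log2 difference of 1.29 in media (SE 0.54, adjusted p = 0.213), which passed with the replicate number as a block (adjusted p = 0.0187). Among 30 genes of receptor signalling and desensitisation, all tested, 10 rose and 4 fell with CDDO-Me in WT CM, where 13.9% of all genes were called higher and 13.9% lower, and 11 rose and 2 fell in KEAP1 KO CM (14.5% and 14.2% of all genes). In media 1 rose and 3 fell (3.07% and 2.94% of all genes), and in NRF2 KO CM 1 rose and 2 fell (4.49% and 5.28%). The 10 that rose in WT CM also rose in KEAP1 KO CM. They were Gnai2, Gng2, Plcb2, Vav1, Prex1, Ptk2b, Rgs14 and the kinases Grk2, Grk3 and Grk5, which desensitise receptors. Arrb2 rose in KEAP1 KO CM only. Pik3cg and Rgs18 fell in both media, and Pik3r5 and Rgs16 fell in WT CM. Grk5 also rose in media and NRF2 KO CM.

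The genes whose 8 group means were most like each receptor, by the root mean square difference of centred log2 means, were named by rule. For Ccr2 these included Slfn8 and Psme2b (0.13 and 0.14), for Ccr3 Pdgfa, Rragd and Padi2 (0.16 to 0.19), and for Ackr3 Pif1, Hmmr and Nsg1 (0.18 to 0.20). Ccrl2 was closest to Tmcc3, Pdgfb and St3gal5 (0.22 to 0.25) and Cxcr4 to Cd200, Gpnmb and Apoc2 (0.24 to 0.34). Ccr1 was closest to Ltb4r1, Rnf19b and Mmp13 (0.42 to 0.46), and Cx3cr1 to Adra1a, Ccn2 and Cnn1 (0.62 to 0.77). Among the receptors themselves, Ccr2 and Ccrl2 were the most alike pair (0.52), and Cx3cr1 and Ccr1 the least (2.54).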

How the data were processed

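BMDM RNA was sequenced from poly-A libraries, quantified by the authors with Kallisto on GRCm39 transcripts, and deposited as TPM per gene, with equal column totals, although the file is named for scaled counts. Depth cannot be recovered, so no counting interval is given and no count test was used. Values were divided by factors from unweighted trimmed means of M values (trims of 30% and 5%), log2 was taken after adding a pseudocount of 1, and genes that reached more than 1 TPM in 3 libraries were fitted with limma 3.58.1 (eBayes with trend, 16 residual degrees of freedom, two-sided, Benjamini-Hochberg) in R 4.3.3. The fit was tested on simulated data with noise drawn independently for each library. Those data held no deviation shared by same-numbered libraries, so the test does not cover it. Figures were drawn with matplotlib 3.10.9 in Python 3.11.15.

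Groups came from the sample labels, and 12 comparisons were made. The study's methods call the 3 samples of a group independent, without saying whether they came from separate mice, and p-values measure the spread between these samples. Same-numbered libraries correlated in their deviations from group means (mean r 0.26, over 0.1 in 71 of 84 pairs; -0.12 for different numbers). In 4 of the 9 comparisons of 2 groups every pair was over 0.1, and the numbers were taken to pair the samples there, a pairing inferred from the data. The same numbers recur in every group, so a set shared by a number would span all comparisons. The labels do not say what a number stands for. The members, gene lists and named-gene rules were chosen with earlier results of these data known. Named were all members, list genes that passed a comparison, and the 3 genes closest in pattern to each member. Alternatives covered scaling, pseudocount, filter, trend, array weights, a block for the replicate number, fits restricted to the groups compared and omitted libraries. Promoter sequences are from RefSeq. A few list genes, near patterns and motifs are not reported here.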

Additional observations from a re-analysis of the deposited data

Results flagged for a closer look

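For 6 results, the response to CDDO-Me differed between a CM and media in a direct test of the difference (limma on all genes, interaction contrast). Ccr2 responded more positively than in media, by 2.40 on the log2 scale in WT CM (SE 0.31, adjusted p = 1.3e-05) and by 2.19 in KEAP1 KO CM (SE 0.31, adjusted p = 4.5e-05). Ccrl2 did so by 1.93 in WT CM (SE 0.45, adjusted p = 0.00496) and by 2.66 in KEAP1 KO CM (SE 0.45, adjusted p = 2.6e-04). For Ccr3 the difference was -1.64 in WT CM (SE 0.26, adjusted p = 1.4e-04) and -1.01 in KEAP1 KO CM (SE 0.26, adjusted p = 0.0115).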

How the results depend on the processing

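Of 30 called receptor results, none changed direction under 542 alternatives, 469 of which kept the call and 73 of which lost it. Of 54 results not called, 46 of 995 alternatives reversed the sign and 72 gave a call. Outside single omitted libraries, Cxcr4 for NRF2 KO CM against media went from 0.01 to -0.02 without scaling or without the filter, -0.06 with array weights and -0.18 without both replicate 3 libraries of NRF2 KO CM. Ccr1 for KEAP1 KO against WT CM was 0.01 without scaling. For the NRF2 KO CM response against media, Ccr3 was 0.00 without scaling, 0.01 with a pseudocount of 5 or no filter, 0.16 with array weights and 0.15 without both libraries, Ccrl2 was -0.01 with a pseudocount of 0.1, -0.06 with array weights and -0.15 without both libraries, and Cxcr4 was 0.04 with array weights. Omitting 1 library gave ranges through 0. These were -0.26 to 0.09 for Ccr3 and -0.19 to 0.18 for Cxcr4 (NRF2 KO CM against media), -0.31 to 0.13 for Ccr1, -0.26 to 0.09 for Ccr2 and -0.09 to 0.56 for Cxcr4 (KEAP1 KO against WT CM), -0.30 to 0.03 for Ackr3 (CDDO-Me in media) and -0.76 to 0.44 for Ccr1 (CDDO-Me in NRF2 KO CM). For the NRF2 KO CM response against media they were -0.70 to 0.13 for Cx3cr1, -0.01 to 1.23 for Ccr1, -0.19 to 0.16 for Ccr3, -0.42 to 0.28 for Ccrl2 and -0.27 to 0.25 for Cxcr4.

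Beside the omitted libraries named above, other settings ended the following calls. For CDDO-Me these were Cx3cr1 in NRF2 KO CM under 7 settings (adjusted p = 0.054 to 0.563), Ackr3 in NRF2 KO CM with array weights, the compared groups only or without both libraries (0.13 to 0.296), in WT CM with RLE scaling, a pseudocount of 5 or no filter (0.0512 to 0.0965) and in KEAP1 KO CM with a pseudocount of 0.1 (0.066), Ccr3 in NRF2 KO CM with the compared groups only or without both libraries (0.103 to 0.243) and in media with a pseudocount of 0.1 or the compared groups only (0.0599 to 0.0765), and Ccrl2 in WT CM without scaling or filter (0.0505 to 0.0609). Ccr2 between WT and NRF2 KO CM was lost without the filter, with the compared groups only and without both libraries (0.0588 to 0.108). The number of receptors called moved as follows. For KEAP1 KO CM against media it was 5 without scaling, with a pseudocount of 5, with the replicate block, in a fit of the compared groups only or without both libraries, and 6 with array weights, in place of 3. For CDDO-Me in media (1) it was 2 without scaling or with the compared groups only, 0 with a pseudocount of 0.1, 5 with array weights and 4 with the replicate block or without both libraries. For CDDO-Me in WT CM (5) it was 3 without the filter. For WT against NRF2 KO CM (3) it was 5 with array weights and 1 with the compared groups only, for KEAP1 KO against WT CM (0) it was 1, Ccr3, with array weights, and for CDDO-Me in NRF2 KO CM (3) it was 5 with the replicate block, 0 with the compared groups only and 1, Ccrl2, without both libraries (-1.06, adjusted p = 0.0162). The response in WT CM against media (3) gave 5 with array weights, the replicate block, the compared groups only or without both libraries, and that in KEAP1 KO CM (3) gave 7 with array weights and 5 with the replicate block. Omitting 1 library gave 1 to 2 for WT CM against media, 0 to 1 for CDDO-Me in media, 1 to 4 for WT against NRF2 KO CM and 3 to 4 for CDDO-Me in WT CM. The causes were not tested.

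Counts of all genes called moved too. Against media, WT CM (1003) gave 4126 with array weights, 1734 with the replicate block, 2044 with the compared groups only and 2595 without both libraries. KEAP1 KO CM (1087) gave 5024, 1770, 2186 and 2951 in the same order, and NRF2 KO CM (1) gave 8, 4, 0 and 0, with 0 without scaling and 2 without the filter. WT against NRF2 KO CM (1457) gave 3401, 2568 and 162 under the first 3 of these, and KEAP1 KO against WT CM (0) gave 1081 with array weights and 1 without the filter. For CDDO-Me in media (821) the values were 3590, 1466, 1606 and 2118, and for NRF2 KO CM (1335) 3033 with array weights and 142 with the compared groups only. Array weights gave 7140 in WT CM (3798) and 7017 in KEAP1 KO CM (3929), and omitting both libraries 5926 and 6145. The response against media gave 5394, 3684 and 3916 for WT CM (2055) and 5376, 3450 and 4040 for KEAP1 KO CM (2014) with array weights, the compared groups only and without both libraries, and for NRF2 KO CM (0) 7 with array weights and 1 without the filter. Omitting 1 library gave 606 to 723 for WT CM, 666 to 873 for KEAP1 KO CM and 0 to 2 for NRF2 KO CM against media, 805 to 2431 for WT against NRF2 KO CM, 0 to 1 for KEAP1 KO against WT CM, 516 to 605 for CDDO-Me in media and 0 to 1 for the NRF2 KO CM response. Without scaling the median of all genes shifted to -0.12 for CDDO-Me in WT CM and -0.17 in KEAP1 KO CM. Ackr3 had no value with the filter at 5 TPM, and neither Ackr3 nor Cx3cr1 had one in some fits of the compared groups only. The difference between the Cxcr4 responses in WT CM and media passed under 8 alternatives (adjusted p = 3.0e-05 with the replicate block) and that in KEAP1 KO CM under 3 (1.2e-04 with the replicate block). With the replicate block, Cxcr4 (adjusted p = 2.3e-05) and Ackr3 (0.0396) passed for KEAP1 KO CM against media and Ccr1 (0.0041) between WT and NRF2 KO CM. For CDDO-Me it called 3 ligands higher (Cx3cl1, Ccl5 and Rarres2) and 11 lower in each of WT and KEAP1 KO CM, with Cxcl12 in WT CM at 2.3e-05 and Rarres2 at 9.0e-04 and 7.0e-04 (0.0789 and 0.0697 without the block). The block turned no called receptor result to not called. TPM carries no depth, and near 1 TPM the pseudocount limits Cx3cr1, Ackr3 and Ccr3 fold changes.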
